A study of Salmo salar with 57 samples.

Results

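In the distal intestine of Atlantic salmon (Salmo salar), 332 of 12064 array probes were shifted the same way from the fish meal diet in all 5 diets that held soybean meal. Of these, 166 probes, called risers here, had a group mean at least 0.4 above the fish meal mean on the log2 scale in each of the 5 diets. The other 166 probes, called fallers, had a group mean at least 0.4 below it in each diet. The members were chosen by their deposited log2 values, as the differences of the 5 diet means from the FM mean, so every difference from fish meal given here for a member is a description and not a test. The limit was met by 213 probes above and 194 below, and 47 and 28 of these were left out because the study lists them under a pathway. The part of that list held here names 790 probes, and the members may include probes that its other part names. Over all probes the limit was met by 1.77% above and by 1.61% below.

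The fish were fed soybean meal together with Chlorella vulgaris (CV), a microalga, with Candida utilis (CU), Kluyveromyces marxianus (KM) or Saccharomyces cerevisiae (SC), which are yeasts, soybean meal with no microbial ingredient (SBM), or fish meal without soybean meal (FM). There was 1 array per fish, with 10 fish in each group other than SBM, which had 7 because the study left out a tank. The labels give each group a letter only, and the diet names were set through the histology scores that the labels and the study give per fish and, for SBM, through the number of fish. All 5 soybean diets also held less fish meal than FM, so soybean meal and less fish meal cannot be told apart, and fish shared tanks that the labels do not name. The p-values therefore measure the spread between fish only. In bulk tissue, fewer cells of a type and less RNA per cell cannot be told apart either.

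Soybean meal is known to cause an enteritis of the distal intestine in salmon, in which mucosal folds shorten, the lamina propria widens with leukocytes and enterocytes lose the vacuoles above their nuclei. These vacuoles belong to the endocytic and lysosomal system with which the distal enterocyte of fish takes up and digests whole proteins. The brush border carries the peptidases and transporters of the last digestive steps, while keratins, desmosomes and annexins hold the epithelium and its membranes together.

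The files pair 2331 of the 12064 probes with a gene, among them 78 risers with 71 symbols and 55 fallers with 54 symbols. The annotated probes come from tables of probes that the study listed as changed in these fish, so 12.2% of them were called above FM on CV, 8.75% on CU, 16.1% on KM, 40.6% on SC and 41.7% on SBM, and 4.59%, 8.84%, 10.3%, 30.0% and 28.7% were called below it. A count within any named list is therefore not independent evidence of its direction. Several lists also name single genes that are members, and they were made with earlier results of these data known. Their member counts follow in part from their make-up. Probe names that begin with Ssa derive from Atlantic salmon sequences and those with Omy from rainbow trout. The medians of the 57 arrays lay between 8.12 and 8.32, and any 2 arrays correlated over all probes with an r of 0.935 to 0.991. The array of FM fish 3 stood apart, with a mean over all probes of −0.19 relative to the FM mean, where the other arrays lay between −0.07 and 0.04. Without that fish the rule chose 168 risers and 199 fallers, of which 145 and 147 were the same probes. Defining enterocyte transcripts were abundant in FM fish, with a mean level of 15.10 for the fatty acid binding protein FABPI and 16.77 for the apolipoprotein APOA4 (Ssa_S47729160). The sum of the histology scores was 0 in all 10 FM fish, 0 to 7 on CV, 0 to 6 on CU, 3 to 7 on KM, 1.5 to 8 on SC and 6 to 8 on SBM.

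Risers and fallers were shifted most in SBM and SC and less in the other diets. The median difference of the 166 risers from FM was 0.63 on CV, 0.63 on CU, 0.68 on KM, 0.94 on SC and 1.16 on SBM. The median difference of the 166 fallers was −0.58 on CV, −0.61 on CU, −0.68 on KM, −1.06 on SC and −1.08 on SBM. Over all probes these medians lay between 0.00 and 0.05. The standard error of a difference from FM was 0.18 for the median riser and 0.26 for the median faller in the groups of 10. The difference was at least 1 in size in all 5 diets for 17 risers and 9 fallers, and under 1 in all 5 for 57 risers and 67 fallers. In 122 risers (73.5%) and 110 fallers (66.3%), the sizes in CV, CU and KM were each smaller than those in SC and in SBM. This count was not made over all probes, so whether the order is particular to the members was not tested. Of all probes, 12.6% on SC and 12.8% on SBM were called above FM, against 3.82% on CV, 2.59% on CU and 4.97% on KM. Called below were 9.56% and 9.34%, against 1.43%, 2.75% and 3.06%.

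**Figure D1:**
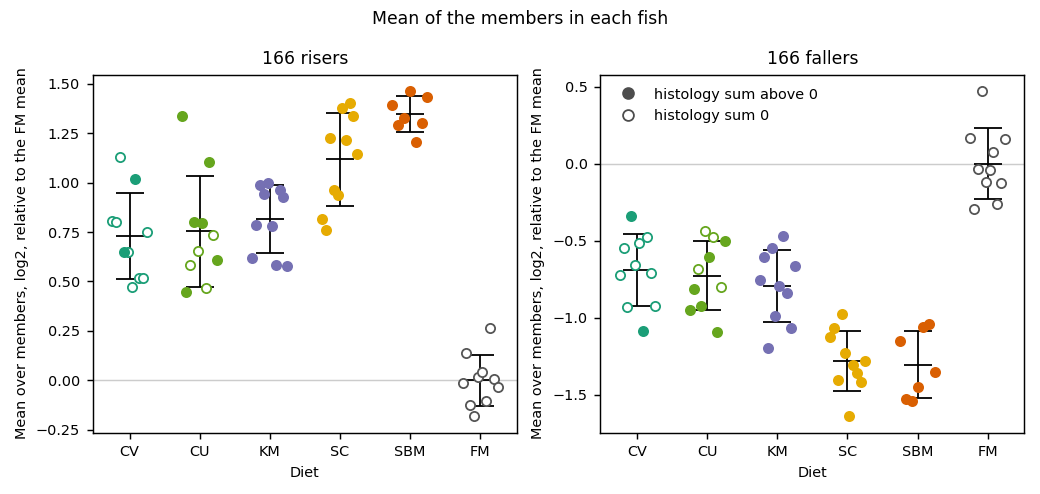
Mean of the 166 risers (left) and of the 166 fallers (right) in each fish, on the log2 scale relative to the FM mean, by diet; each point is a fish, open where its histology sum was 0, and bars give the mean and SD. All 47 soybean fish lie above the FM fish for the risers and below them for the fallers. The choice of the members by group means favours this, so nothing is read from it.

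With every riser averaged in each fish, the lowest, median and highest fish relative to the FM mean were at 0.47, 0.70 and 1.13 on CV. They were at 0.45, 0.69 and 1.34 on CU and at 0.58, 0.86 and 1.00 on KM. In SC they were at 0.76, 1.18 and 1.40 and in SBM at 1.2, 1.33 and 1.47, while FM fish ranged between −0.18 and 0.26. The SBM fish did not overlap those of CV or KM, whereas 1 CU fish, at 1.34, and several SC fish reached the SBM range. For the mean of the fallers, CV fish ranged between −1.08 and −0.34, CU fish between −1.09 and −0.43 and KM fish between −1.2 and −0.47. SC fish ranged between −1.64 and −0.98 and SBM fish between −1.54 and −1.04, against −0.29 to 0.47 in FM fish. The range of SBM lay within that of SC in this measure.

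The values of the members in fish without histological change are given as a description. In the 8 CV fish whose histology sum was 0, the median difference from the mean of all FM fish was 0.61 for risers and −0.58 for fallers. In these fish 154 risers and 144 fallers met the limit, where 6.58% of all probes lay that far above FM and 5.06% that far below. In the 4 CU fish with a sum of 0, the medians were 0.53 and −0.54, and 116 risers and 117 fallers met the limit, beside 4.08% and 6.25% of all probes. These fish are part of the groups that chose the members, so the counts largely follow from the rule. Nothing is read from the gap to all probes. The CV fish with the highest sum, fish 7 with a sum of 7, had a riser mean of 1.02, and CV fish 3, with a sum of 0, had 1.13. In CU, fish 1 and fish 2 both had a sum of 4, with riser means of 1.34 and 0.45. These are single fish, and fish 1 and 2 are the ends of the CU range. The riser means averaged 0.61 in the 4 CU fish with a sum of 0 and 0.85 in the 6 others. On CV they averaged 0.71 in the 8 fish and 0.83 in the 2 others. For fallers the averages were −0.60 and −0.82 on CU and −0.68 and −0.71 on CV. The relation of the shifts to histology was not tested.

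The annotated members most separate from FM were annexins and an L6 tetraspan. Annexins bind acidic phospholipids in the presence of calcium, and annexin A2 links membranes to the cortical actin below the apical surface of epithelia. Levels are given as the lowest to the highest fish, with the median in brackets. ANXA2 (Ssa_CL476Contig1) had log2 levels of 14.15 to 15.25 (14.61) on CV, 14.18 to 15.53 (14.67) on CU, 14.30 to 15.01 (14.60) on KM, 14.68 to 15.49 (15.02) on SC and 15.10 to 15.60 (15.21) on SBM, against 13.12 to 14.13 (13.74) on FM. No soybean fish overlapped the FM fish. The differences from FM were 0.96 on CV, 1.04 on CU, 0.93 on KM, 1.38 on SC and 1.59 on SBM (SE 0.14 and, for SBM, 0.16).

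Of the 10 annexin probes, 5 were risers and none a faller. The other ANXA2 riser, Ssa_S35493532, differed from FM by 0.98 on CV, 1.01 on CU, 0.97 on KM, 1.43 on SC and 1.61 on SBM. The probes of ANX2A, annexin A2-A, differed by 0.91 to 1.61 (Ssa_EG783484) and by 0.95 to 1.73 (Ssa_GRASP209732331). Annexin A3 (ANXA3, Ssa_GRASP209733099) differed by 0.43 on CV, 0.55 on CU, 0.48 on KM, 0.72 on SC and 0.98 on SBM. All fish of CU, KM, SC and SBM were above the FM fish for ANXA3, while CV and FM overlapped. A further ANXA2 probe that is no member, Ssa_STIR09077, differed from FM by −0.14 to −1.12, so the probes with this symbol disagreed, and these near-identical genes may share signal. Over the whole list, 6 probes were called above FM on CV, 5 on CU, 7 on KM, 9 on SC and 8 on SBM, where a call needed an adjusted p under 0.05 in limma's nested F-test (Benjamini-Hochberg) and a difference of at least 0.4. A single probe was called below FM on KM and SC.

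L6 tetraspans (transmembrane 4 L6 family) are membrane proteins of epithelia that act in adhesion and motility. T4S1 (Ssa_GRASP209730483) had log2 levels of 13.85 to 14.45 (14.21) on CV, 13.87 to 15.04 (14.21) on CU, 13.83 to 14.48 (14.01) on KM, 13.91 to 14.92 (14.31) on SC and 14.37 to 14.91 (14.77) on SBM, against 12.92 to 13.78 (13.44) on FM. These T4S1 levels did not overlap FM in any diet. The differences were 0.77 on CV, 0.83 on CU, 0.67 on KM, 0.94 on SC and 1.29 on SBM (SE 0.12 and, for SBM, 0.13). T4S4 (Omy_S18535454) had log2 levels of 11.91 to 14.71 (13.21) on CV, 12.13 to 15.29 (13.64) on CU, 13.11 to 14.82 (13.73) on KM, 13.42 to 15.42 (14.68) on SC and 14.05 to 15.57 (14.88) on SBM, against 11.55 to 12.43 (12.14) on FM. Here CV and CU overlapped FM, and KM, SC and SBM did not. T4S4 differed from FM by 1.23 on CV, 1.46 on CU, 1.74 on KM, 2.45 on SC and 2.74 on SBM (SE 0.31 and, for SBM, 0.35). Of the 3 L6 probes, the remaining one, Ssa_CB507035, has the symbol T4S4 too and differed by −0.08 to 0.52.

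**Figure D2:**
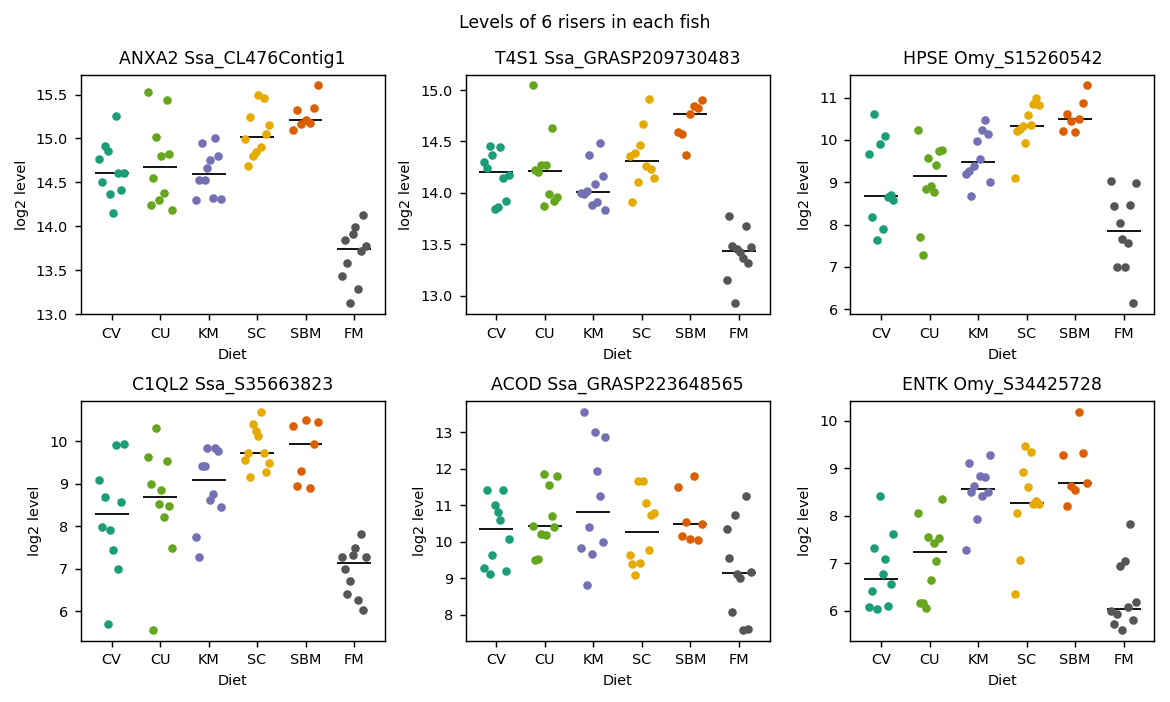
Level of 6 risers in each fish, on the log2 scale of the deposited table, by diet; each point is a fish and each bar the group median. ANXA2 (Ssa_CL476Contig1) and T4S1 are separate from FM in every diet, while for the other 4 the CV fish overlap the FM fish.

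Keratins, which form the intermediate filaments of epithelia, and the desmosome and plakin genes that anchor them gave 6 risers and 1 faller. K1C13 (Ssa_S31979022) had log2 levels of 11.48 to 13.28 (12.58) on CV, 11.84 to 13.32 (12.26) on CU, 11.79 to 12.77 (12.26) on KM, 11.90 to 12.99 (12.47) on SC and 12.64 to 13.16 (12.78) on SBM, against 11.21 to 11.88 (11.61) on FM. SC and SBM alone were separate from FM. This K1C13 (type I keratin 13) probe differed from FM by 0.89 on CV, 0.82 on CU, 0.71 on KM, 0.90 on SC and 1.26 on SBM (SE 0.17 and, for SBM, 0.18), the second K1C13 riser, Ssa_S31963778, by 0.43 to 1.08 and the type II keratin K2C5 by 0.42 to 1.18. A probe with the same symbol, K1C13 Ssa_S35509606, was a faller with −0.78 on CV, −0.86 on CU, −1.42 on KM, −2.58 on SC and −2.38 on SBM, so these keratin probes ran in opposite directions. Periplakin (PEPL), which ties keratin filaments to desmosomes, differed by 0.81 on CV, 0.90 on CU, 0.80 on KM, 1.24 on SC and 1.47 on SBM and the desmosomal cadherin desmocollin-2 (DSC2) by 0.65 on CV, 0.73 on CU, 0.64 on KM, 0.82 on SC and 1.22 on SBM. Plectin (PLEC), a linker of the cytoskeleton, differed by 0.44 to 0.92, the largest in SC. Over both lists, 2 of 8 keratin probes and 4 of 6 desmosome and plakin probes were called above FM on CV, and 7 of 8 and 6 of 6 on SBM.

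Heparanase (HPSE), the enzyme that cleaves the heparan sulphate chains of the extracellular matrix, was the symbol with the most riser probes. Those of annexin A2 lie under the symbols ANXA2 and ANX2A. HPSE (Omy_S15260542) had log2 levels of 7.64 to 10.61 (8.67) on CV, 7.29 to 10.24 (9.15) on CU, 8.68 to 10.48 (9.47) on KM, 9.11 to 10.98 (10.33) on SC and 10.19 to 11.29 (10.49) on SBM, against 6.14 to 9.02 (7.85) on FM. SC and SBM did not overlap FM, and the other diets did. The difference from FM was 1.15 on CV, 1.19 on CU, 1.76 on KM, 2.51 on SC and 2.75 on SBM (SE 0.34 and, for SBM, 0.38). The other HPSE probes differed by 0.83 to 2.07 (Ssa_DW555078) and by 0.63 to 1.88 (Ssa_DN140424), with CV and CU lowest and SBM highest in both. In odd-numbered fish alone, the smallest of the 5 differences was 1.64, 1.15 and 0.99 for these HPSE probes in turn. In even-numbered fish alone, it was −0.004, 0.05 and 0.03, so none met the limit there. The sulphotransferase HS3S1, which adds a rare sulphate group to heparan sulphate, differed by 0.46 on CV, 0.61 on CU, 0.59 on KM, 0.75 on SC and 1.29 on SBM. Of the 12 heparan sulphate probes, 3 were called above FM on CV, 4 on CU, 4 on KM, 5 on SC and 6 on SBM, and 1, 1, 1, 3 and 4 below, so the list as a whole did not move one way.

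Among genes of lipid synthesis, acyl-CoA desaturase (ACOD), which makes monounsaturated fatty acids, was a riser with its largest difference in KM. ACOD (Ssa_GRASP223648565) had log2 levels of 9.12 to 11.42 (10.34) on CV, 9.50 to 11.87 (10.42) on CU, 8.81 to 13.56 (10.83) on KM, 9.09 to 11.66 (10.26) on SC and 10.07 to 11.80 (10.48) on SBM, against 7.60 to 11.24 (9.15) on FM. All groups overlapped FM. The differences were 1.01 on CV, 1.37 on CU, 1.89 on KM, 1.08 on SC and 1.41 on SBM (SE 0.49 and, for SBM, 0.54). In even-numbered fish alone the smallest of the 5 was 0.15, under the limit, against 1.29 in odd-numbered fish. ATP-citrate synthase (ACLY), which supplies acetyl-CoA for fatty acid synthesis, differed by 0.86 on CV, 0.83 on CU, 0.83 on KM, 1.01 on SC and 1.32 on SBM, and cholesterol 25-hydroxylase (CH25H), which makes an oxysterol that acts in immunity and sterol control, by 0.61 on CV, 0.64 on CU, 0.90 on KM, 0.97 on SC and 1.31 on SBM. Of the 7 lipid probes, 2, 1, 5, 3 and 5 were called above FM on CV, CU, KM, SC and SBM, and 0, 0, 0, 1 and 1 below.

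The cytokine and complement list held 40 probes, of which 6 were risers. CCL20 (Omy_S15341085) had log2 levels of 7.29 to 8.96 (8.03) on CV, 7.37 to 9.19 (8.29) on CU, 7.70 to 9.53 (8.24) on KM, 8.45 to 9.77 (9.32) on SC and 9.13 to 10.20 (9.59) on SBM, against 7.04 to 8.17 (7.60) on FM. CCL20, a chemokine of mucosal epithelia that draws lymphocytes and dendritic cells, was separate from FM on SC and SBM only. It differed by 0.51 on CV, 0.73 on CU, 0.76 on KM, 1.63 on SC and 2.05 on SBM (SE 0.22 and, for SBM, 0.25), and the CCL20 probe Ssa_S35549491, which the study lists under a pathway, by 0.35 on CV, 0.51 on CU, 0.61 on KM, 1.5 on SC and 2.06 on SBM. A CCL20 probe outside the members, Ssa_S35592814, differed from FM by −0.27 to −0.83, so the probes with this symbol disagreed. The complement C1q-like protein C1QL2 differed by 1.27 on CV, 1.60 on CU, 1.96 on KM, 2.89 on SC and 2.82 on SBM, complement component C6 (CO6), a part of the membrane attack complex, by 0.61 on CV, 0.54 on CU, 1.04 on KM, 1.65 on SC and 1.3 on SBM, and the chemokine CCL4 by 0.84 on CV, 0.66 on CU, 0.56 on KM, 0.91 on SC and 1.52 on SBM. NF-kappa-B inhibitor epsilon (IKBE), which retains NF-kappa-B in the cytoplasm, differed by 0.51 to 0.91 and by 0.44 to 0.81 in 2 probes. In the list, 8 probes were called above FM on CV, 7 on CU, 12 on KM, 26 on SC and 16 on SBM, against 0, 0, 3, 8 and 7 below.

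Protein folding and turnover gave 6 risers with small differences. MANF, CNPY2, FICD and UBIQP were named in this list by symbol, so the count follows in part from its make-up. MANF (Ssa_GRASP209738173) had log2 levels of 13.28 to 14.60 (13.66) on CV, 13.40 to 14.41 (13.98) on CU, 13.26 to 14.33 (13.99) on KM, 14.10 to 14.48 (14.32) on SC and 13.98 to 14.71 (14.16) on SBM, against 12.75 to 13.66 (13.43) on FM. SC and SBM did not overlap FM for MANF, a protein of the endoplasmic reticulum that is induced by misfolded proteins. It differed by 0.41 on CV, 0.57 on CU, 0.49 on KM, 0.93 on SC and 0.91 on SBM (SE 0.14 and, for SBM, 0.15). The chaperone HSP7C differed by 0.48 on CV, 0.47 on CU, 0.56 on KM, 0.96 on SC and 0.92 on SBM. FICD, which modifies the chaperone BiP, was nearly level over the diets, with 0.51 on CV, 0.53 on CU, 0.49 on KM, 0.53 on SC and 0.70 on SBM. The canopy homolog CNPY2 differed by 0.47 to 0.82, polyubiquitin (UBIQP) by 0.43 to 1.37 and ATG4B, a protease of autophagosome formation, by 0.54 to 1.16. Of the 20 probes of the list, 9 were called above FM on CV, 9 on CU, 10 on KM, 17 on SC and 15 on SBM, against 0, 0, 0, 2 and 1 below.

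Several of the largest risers stood alone in their function. EPD1 (Ssa_S37438478) had log2 levels of 4.62 to 8.06 (5.90) on CV, 5.29 to 8.24 (6.16) on CU, 4.74 to 7.73 (6.18) on KM, 6.55 to 8.32 (7.83) on SC and 7.21 to 9.25 (8.05) on SBM, against 3.50 to 6.08 (4.40) on FM. Ependymin-1 (EPD1), a secreted glycoprotein first known from fish brain, was separate from FM on SC and SBM. It differed by 1.48 on CV, 1.93 on CU, 1.68 on KM, 2.98 on SC and 3.60 on SBM (SE 0.39 and, for SBM, 0.43), and the smallest of these, 1.48, was 0.44 with normexp background correction of the scanner signals. Serine protease 27 (PRS27) differed by 1.74 on CV, 1.77 on CU, 1.43 on KM, 2.06 on SC and 3.27 on SBM, and spartin (SPG20), a protein of endosomal and lipid droplet traffic, by 1.18 on CV, 1.27 on CU, 1.37 on KM, 1.99 on SC and 2.20 on SBM. The glycosyltransferase B3GN7, which extends keratan sulphate chains, differed by 0.95 on CV, 1.3 on CU, 1.3 on KM, 2.17 on SC and 2.85 on SBM, and the scaffold protein MPP2 by 1.07 on CV, 0.95 on CU, 0.92 on KM, 2.22 on SC and 2.11 on SBM.

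Enteropeptidase (ENTK), the brush border protease that activates trypsinogen, had differences in CV and CU far below those in KM, SC and SBM. ENTK (Omy_S34425728) had log2 levels of 6.03 to 8.41 (6.67) on CV, 6.05 to 8.36 (7.23) on CU, 7.28 to 9.29 (8.56) on KM, 6.35 to 9.48 (8.28) on SC and 8.20 to 10.20 (8.68) on SBM, against 5.60 to 7.83 (6.03) on FM. It was separate from FM on SBM alone and differed by 0.53 on CV, 0.79 on CU, 2.22 on KM, 1.96 on SC and 2.67 on SBM (SE 0.34 and, for SBM, 0.37). In even-numbered fish alone the smallest of the 5 was −0.15, against 1.22 in odd-numbered fish, so the direction was not kept there. The amino acid transporter S38A2 differed by 0.50 to 1.35, the haem synthesis enzyme HEM1 by 0.62 to 1.15 and the mitochondrial carrier SCMC1 by 0.43 to 1.16. RDM1, a protein of DNA repair, had 2 riser probes with 0.60 to 1.57 and 0.63 to 1.42. Of the transcription factors, FOXA1, a pioneer factor of gut endoderm, differed by 1.41 on CV, 0.86 on CU, 0.59 on KM, 1.52 on SC and 2.67 on SBM, with KM lowest, and the ETS factor ETV4 by 0.60 on CV, 0.65 on CU, 0.83 on KM, 1.16 on SC and 1.31 on SBM. The largest riser in SBM had no annotation. Ssa_S47729315 had log2 levels of 6.66 to 9.32 (8.01) on CV, 6.37 to 10.79 (8.12) on CU, 8.24 to 10.66 (9.26) on KM, 8.80 to 11.79 (10.37) on SC and 10.49 to 11.55 (11.31) on SBM, against 5.88 to 7.05 (6.27) on FM. This probe, Ssa_S47729315, differed by 1.58 on CV, 2.08 on CU, 3.02 on KM, 4.12 on SC and 4.76 on SBM and was separate from FM on KM, SC and SBM. Another without annotation, Ssa_GRASP223648255, differed by 1.54 to 2.95.

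**Figure D3:**
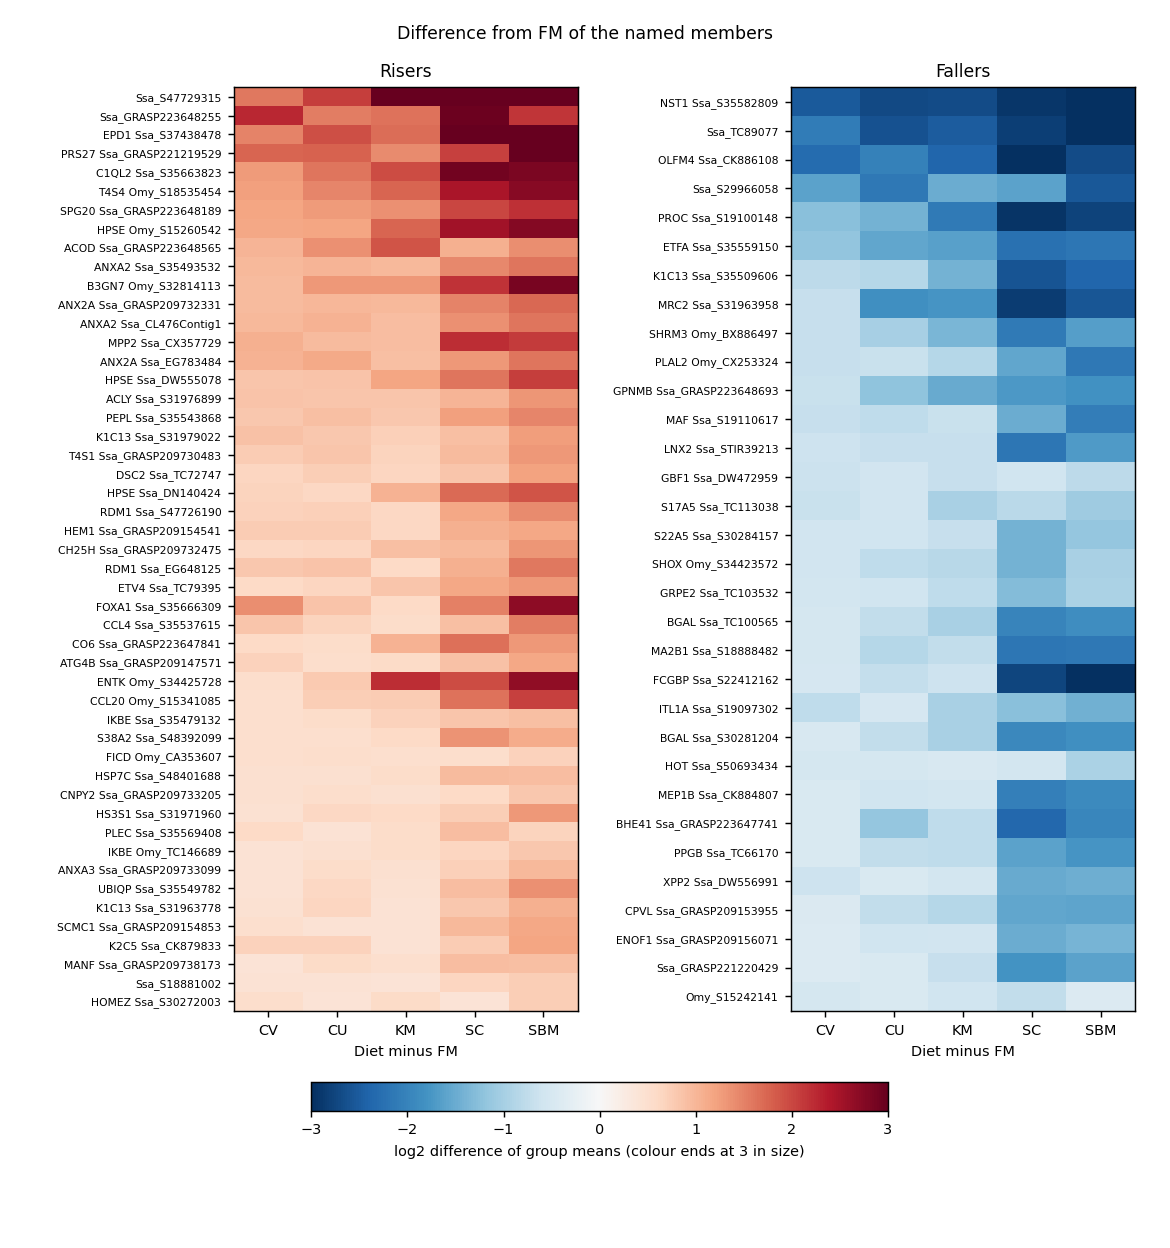
Difference of each diet from FM for the 81 named members, 49 risers (left) and 32 fallers (right), sorted by their smallest difference in size; columns are the diets and colour gives the log2 difference of group means, ending at 3 in size. Colours are strongest in the SC and SBM columns for most members, while NST1 and OLFM4 are strong in all 5 columns and FICD and GBF1 are faint in all 5.

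Fallers were led by a secreted glycoprotein and a probe with little known of its product. Olfactomedin-4 (OLFM4) is secreted into the mucus and in mammals marks cells of the crypt base. OLFM4 (Ssa_CK886108) had log2 levels of 7.11 to 12.57 (11.11) on CV, 9.47 to 12.15 (11.29) on CU, 9.91 to 11.42 (10.82) on KM, 9.24 to 11.15 (9.95) on SC and 9.76 to 11.05 (10.32) on SBM, against 12.07 to 14.07 (13.17) on FM. KM, SC and SBM did not overlap FM, and CV fish 3 was far below the other CV fish. The differences were −2.30 on CV, −2.03 on CU, −2.39 on KM, −3.07 on SC and −2.68 on SBM (SE 0.38 and, for SBM, 0.42). NST1 (Ssa_S35582809) had log2 levels of 7.51 to 10.97 (8.91) on CV, 7.16 to 10.15 (9.01) on CU, 7.18 to 10.32 (8.90) on KM, 7.83 to 9.96 (8.65) on SC and 6.57 to 8.71 (8.27) on SBM, against 9.36 to 14.12 (11.43) on FM. NST1, annotated by its likeness to an uncharacterised protein, was separate from FM on SBM only, and differed by −2.52 on CV, −2.71 on CU, −2.69 on KM, −2.91 on SC and −3.63 on SBM (SE 0.43 and, for SBM, 0.47). A pair of probes without annotation had differences of like size, Ssa_TC89077 with −2.09 on CV, −2.60 on CU, −2.50 on KM, −2.82 on SC and −3.10 on SBM and Ssa_S29966058 with −1.50 to −2.55.

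The mucus and lectin list held 10 probes, of which 4 were fallers. Besides OLFM4 these were FCGBP, ITL1A and MRC2. FCGBP (Ssa_S22412162) had log2 levels of 10.45 to 13.22 (11.97) on CV, 10.86 to 12.96 (11.47) on CU, 9.85 to 14.18 (11.34) on KM, 7.76 to 12.05 (9.62) on SC and 8.06 to 11.17 (8.89) on SBM, against 11.49 to 13.29 (12.43) on FM. FCGBP, a large protein of goblet cell mucus, was separate from FM on SBM only, and its difference was −0.51 on CV, −0.73 on CU, −0.62 on KM, −2.76 on SC and −3.0 on SBM (SE 0.46 and, for SBM, 0.50). Intelectin-1a (ITL1A), a lectin that binds microbial sugars, differed by −0.77 on CV, −0.50 on CU, −0.97 on KM, −1.25 on SC and −1.45 on SBM. The mannose receptor MRC2 differed by −0.69 on CV, −1.85 on CU, −1.77 on KM, −2.84 on SC and −2.57 on SBM, while both other MRC2 probes, which are no members, differed from FM by −0.23 to 0.52. In the list 4, 4, 3, 7 and 7 probes were called below FM on CV, CU, KM, SC and SBM, and 3 were called above in SC.

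The lysosome list, the compartment of the supranuclear vacuoles, held 24 probes, of which 7 were fallers and none a riser. The symbols of these fallers were each named in the list, so this count follows in part from its make-up. MA2B1 (Ssa_S18888482) had log2 levels of 13.77 to 16.33 (15.89) on CV, 14.38 to 16.26 (15.62) on CU, 14.45 to 16.33 (15.63) on KM, 13.16 to 14.78 (14.06) on SC and 13.14 to 15.35 (13.88) on SBM, against 15.60 to 16.69 (16.41) on FM. Lysosomal alpha-mannosidase (MA2B1), which trims the sugars of glycoproteins, overlapped FM on CV, CU and KM and not in SC or SBM. It differed by −0.52 on CV, −0.86 on CU, −0.74 on KM, −2.16 on SC and −2.15 on SBM (SE 0.30 and, for SBM, 0.33). The smallest of these was −0.07 in even-numbered fish alone, within the limit, against −0.65 in odd-numbered fish. BGAL (Ssa_TC100565) had log2 levels of 9.54 to 12.27 (11.16) on CV, 9.99 to 11.95 (11.04) on CU, 9.89 to 11.51 (10.75) on KM, 8.76 to 10.35 (9.69) on SC and 9.17 to 10.45 (9.73) on SBM, against 11.11 to 12.57 (11.51) on FM. Beta-galactosidase (BGAL) differed by −0.54 on CV, −0.74 on CU, −0.96 on KM, −1.98 on SC and −1.86 on SBM (SE 0.24 and, for SBM, 0.27) in this probe and by −0.49 to −1.94 in Ssa_S30281204. The carboxypeptidases PPGB and CPVL, of which PPGB also protects beta-galactosidase, differed by −0.46 on CV, −0.74 on CU, −0.76 on KM, −1.61 on SC and −1.77 on SBM and by −0.42 on CV, −0.74 on CU, −0.86 on KM, −1.56 on SC and −1.59 on SBM. GPNMB, a membrane glycoprotein of lysosomes, differed by −0.67 on CV, −1.21 on CU, −1.51 on KM, −1.71 on SC and −1.81 on SBM, and sialin (S17A5), which exports sialic acid from the lysosome, by −0.67 on CV, −0.58 on CU, −0.97 on KM, −0.80 on SC and −1.07 on SBM. In the whole list, 1 probe was called below FM on CV, 8 on CU, 11 on KM, 20 on SC and 19 on SBM, against 1, 0, 1, 1 and 1 above. Of the 17 lysosome probes that are no members, 1, 4, 5, 14 and 12 were called below FM in these diets. Of all annotated probes, 4.59%, 8.84%, 10.3%, 30.0% and 28.7% were called below FM. The 17 include further probes of BGAL, MA2B1 and PPGB, so they are not independent of the members.

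**Figure D4:**
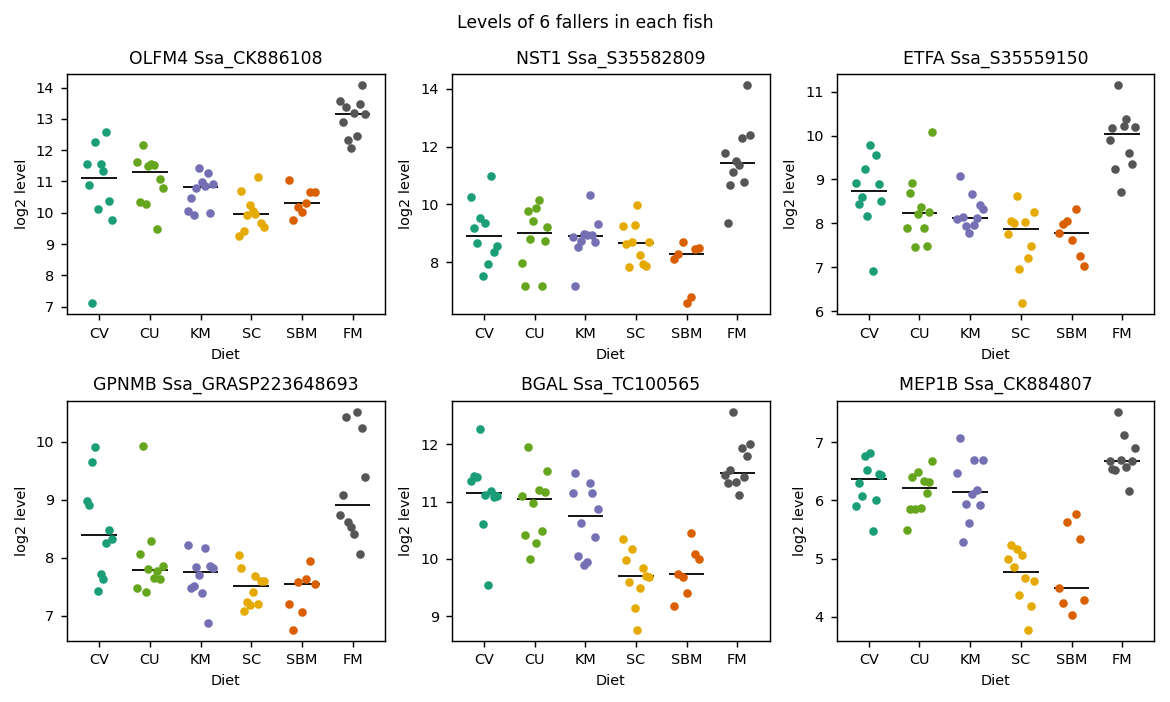
Level of 6 fallers in each fish, on the log2 scale of the deposited table, by diet; each point is a fish and each bar the group median. OLFM4 and NST1 are low in all 5 soybean diets, and BGAL and MEP1B are lower in SC and SBM than in CV, CU and KM.

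Brush border and transport genes gave 3 fallers and 2 risers among 17 probes. MEP1B (Ssa_CK884807) had log2 levels of 5.48 to 6.82 (6.36) on CV, 5.50 to 6.69 (6.22) on CU, 5.28 to 7.08 (6.14) on KM, 3.77 to 5.23 (4.76) on SC and 4.03 to 5.77 (4.48) on SBM, against 6.17 to 7.53 (6.68) on FM. Meprin beta (MEP1B), a metalloprotease of the brush border, was separate from FM on SC and SBM. It differed by −0.47 on CV, −0.60 on CU, −0.54 on KM, −2.05 on SC and −1.92 on SBM (SE 0.21 and, for SBM, 0.23). Aminopeptidase XPP2, which cleaves peptides before proline, differed by −0.61 on CV, −0.45 on CU, −0.55 on KM, −1.51 on SC and −1.47 on SBM, and the carnitine transporter S22A5 by −0.57 on CV, −0.59 on CU, −0.68 on KM, −1.41 on SC and −1.17 on SBM. In this list 1 probe was called below FM on CV, 1 on CU, 2 on KM, 12 on SC and 11 on SBM, against 0, 0, 3, 4 and 3 above. The 4 enterocyte marker probes, none of them a member, were below FM on SC and SBM by unequal amounts. FABPI differed from FM by −1.89 on SC and −1.33 on SBM, and by −0.18 to −0.37 on CV, CU and KM. The APOA4 probe Ssa_S47729160 differed by −2.18 on SC and −2.33 on SBM, and by −0.43 to −0.50 on the other 3. The other APOA4 probe, Ssa_S30236896, differed by −0.77 on SC and −0.64 on SBM, and APOA1 by −0.70 and −0.45, but both lay 0.06 to 0.29 above FM on CV, CU and KM. The part of these markers in these shifts and in those of the lysosome probes was not tested.

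Of the 8 probes in the list of mitochondrial enzymes, 4 were fallers and 2 risers. Every symbol in this list but ETFB has a member probe, so these counts follow from the make-up of the list. The same holds for the list of transcription factors, where every symbol has a member probe. ETFA (Ssa_S35559150) had log2 levels of 6.92 to 9.78 (8.75) on CV, 7.46 to 10.07 (8.24) on CU, 7.78 to 9.09 (8.13) on KM, 6.18 to 8.62 (7.88) on SC and 7.03 to 8.33 (7.79) on SBM, against 8.72 to 11.15 (10.03) on FM. The electron transfer flavoprotein subunit ETFA, which carries electrons of fatty acid oxidation to the respiratory chain, was separate from FM on SC and SBM. It differed by −1.19 on CV, −1.57 on CU, −1.64 on KM, −2.24 on SC and −2.17 on SBM (SE 0.29 and, for SBM, 0.32). GRPE2, a partner of the mitochondrial chaperone, differed by −0.55 to −1.31, HOT by −0.48 to −0.95 and ENOF1 by −0.41 to −1.49. The transcription factors among the fallers were MAF with −0.70 on CV, −0.77 on CU, −0.67 on KM, −1.49 on SC and −2.07 on SBM, PLAL2 with −0.68 to −2.14, SHOX with −0.57 to −1.41 and the clock-related repressor BHE41 with −0.47 on CV, −1.17 on CU, −0.76 on KM, −2.35 on SC and −1.95 on SBM. Protein C (PROC), an anticoagulant protease, differed by −1.24 on CV, −1.42 on CU, −2.12 on KM, −2.94 on SC and −2.78 on SBM, the actin-binding protein SHRM3 by −0.68 to −2.11 and the ubiquitin ligase LNX2 by −0.62 to −2.16. GBF1, a factor of Golgi traffic, differed by a like amount in every diet, with −0.63 on CV, −0.59 on CU, −0.69 on KM, −0.59 on SC and −0.79 on SBM.

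Other annotated members, chosen for mention after their values were seen, covered functions outside these lists. Among risers, myoglobin (MYG), an oxygen-binding protein, differed by 0.48 to 2.02, PHLA2 by 0.73 to 2.31, the growth factor neuregulin-1 (NRG1) by 0.68 to 1.61 and the small GTPase RHOU by 0.62 to 1.78. The chemokine-like receptor CML1 had its largest differences in CU and KM, 0.93 and 0.92, against 0.49 on SBM. Among fallers, the ice-structuring protein ISP2 differed by −0.42 on CV and by −1.55 to −2.54 in the other diets, and the stress protein sestrin-1 (SESN1) by −0.58 to −1.80. HMR1, an antigen-presenting protein related to MHC class I, differed by −0.41 to −1.91, the plasma selenoprotein SELPA by −0.40 to −1.54 and the cation channel TRPM5, known in mammals from taste and tuft cells, by −0.43 to −0.78. TVA1, a T-cell receptor alpha chain segment (Ssa_S37959499), differed by −0.50 to −1.08. In even-numbered fish alone its smallest difference was 0.05, against −0.67 in odd-numbered fish, so its direction was not kept there.

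The members were also compared between each microbial diet and SBM. The rule used the means of both groups, without an order between them, and it picks probes that were shifted in SBM, so the shares of all probes given beside the counts are not those of a like set and nothing is read from the gap. The 4 microbial diets held less fish meal than SBM too, so the microbial ingredient and less fish meal cannot be told apart. The test was limma over all 12064 probes with Benjamini-Hochberg adjustment in each contrast. In CV, 84 of 166 risers were lower than in SBM, where 8.49% of all probes were, and 68 of 166 fallers were higher, where 8.42% of all probes were. In CU, 72 risers were lower (6.6% of all probes) and 58 fallers were higher (4.28%). In KM, 74 risers were lower (7.62%) and 59 fallers were higher (7.24%). In SC, 0 risers were lower (0.414%) and 0 fallers were higher (0.398%) by limma, where 31 risers were lower and 7 fallers higher at an unadjusted p under 0.05. A riser higher than in SBM was found once, Ssa_S18849311 on CU, by 0.88 (limma, adjusted p = 0.029), and no faller was called lower than in SBM in any of the 4 diets, where 2 were lower in SC at an unadjusted p under 0.05 and 0 in the others.

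**Figure D5:**
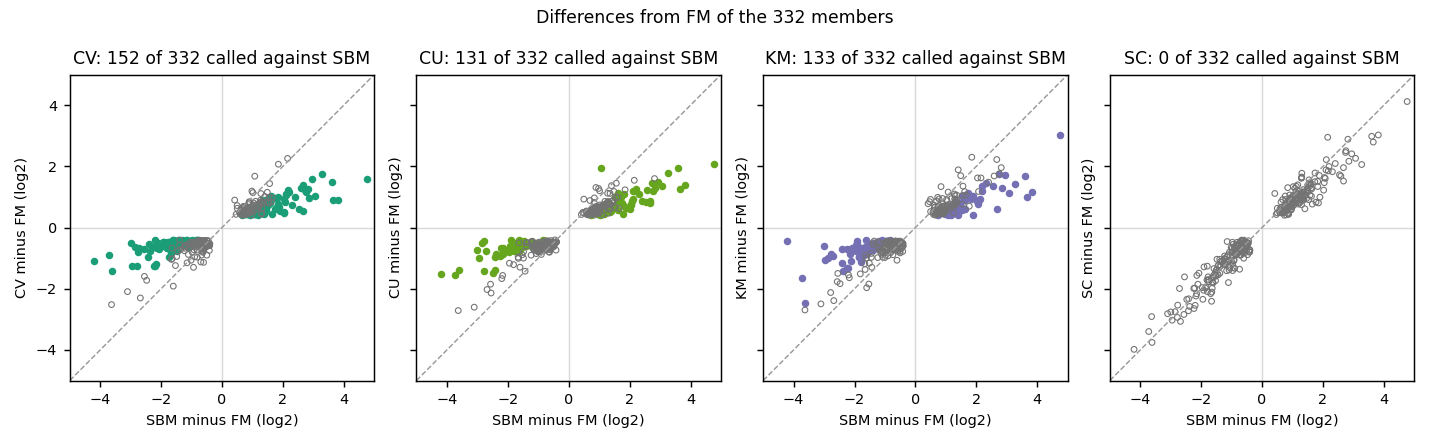
Difference from FM on CV, CU, KM and SC (vertical, log2) against that in SBM (horizontal, log2) for the 332 members; each point is a probe, filled where limma's test against SBM passed, and the broken line marks equal differences. Filled points number 152 for CV, 131 for CU and 133 for KM and lie nearer to 0 than the line apart from 1 on CU, and SC has 0; both axes share the FM mean, so the slope is not a result.

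The comparison with SBM was therefore repeated, after the counts above were seen, on probes that the rule chose in fish other than those tested. These probes are not the 332 members. Of the 240 risers and 218 fallers chosen in odd-numbered fish, 131 and 101 are members. Of the 175 and 179 chosen in even-numbered fish, 86 and 79 are members. Of the 240 risers chosen in odd-numbered fish, 48 were lower than in SBM on CV, 2 on CU, 5 on KM and 0 on SC in the even-numbered fish (3 on SBM), beside 1.84%, 0.0414%, 0.216% and 0% of all probes. Of the 218 fallers, 57 were higher than in SBM on CV, 4 on CU, 11 on KM and 0 on SC, beside 2.45%, 0.0995%, 0.456% and 0%. At an unadjusted p under 0.05 by limma, 6 of these risers were lower and 2 of these fallers higher on SC. With the fish exchanged (4 on SBM), 4 of 175 risers were lower on CV, 20 on CU, 2 on KM and 0 on SC. Of all probes, 0.149%, 2.32%, 0.0414% and 0.0497% were lower. Of 179 fallers, 1 was higher on CV, 9 on CU, 0 on KM and 0 on SC, beside 0.315%, 2.14%, 0.0166% and 0.0995% of all probes. In the other direction, 1 riser was called higher than in SBM on CU and 1 on SC. Here 10 risers were lower and 1 faller was higher on SC at an unadjusted p under 0.05 by limma, and 36 fallers were higher on KM. The median difference from SBM in the fish not used for the choice was −0.52 and −0.25 for risers on CV, −0.47 and −0.38 on CU, −0.47 and −0.20 on KM and −0.18 and −0.05 on SC. For fallers it was 0.55 and 0.18 on CV, 0.34 and 0.20 on CU, 0.35 and 0.29 on KM and 0.03 and 0.06 on SC. The direction on CV, CU and KM was thus the same in both sets of fish, while the number of calls and the diet with most of them were not. These probes too were chosen as shifted in SBM.

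The median difference of the risers from SBM was −0.50 on CV, −0.48 on CU, −0.47 on KM and −0.21 on SC. That of the fallers was 0.46 on CV, 0.42 on CU, 0.38 on KM and 0.02 on SC. Within the first scan day the riser medians were −0.38, −0.56, −0.43 and −0.17 on CV, CU, KM and SC, and within the second −0.55, −0.44, −0.49 and −0.23. Calls were fewer within a scan day, with 0 to 21 risers lower and 0 to 26 fallers higher in CV, CU or KM. The faller medians were 0.41, 0.44, 0.39 and 0.03 within the first scan day and 0.54, 0.45, 0.45 and 0.09 within the second. Over all probes, 50.2% of the calls against SBM in CV and 51.3% on KM were lower, and 29.1% and 27.9% with the scanner signals processed after the methods. In CU 60.7% were lower, and 45.5% with arrays scaled to their 75th percentile or 44.5% once each diet was centred on its all-probe median. In SC 51.0% were lower, and 29.6% with the 75th percentile scaling.

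For 53 risers and 47 fallers the call toward FM was made in CV, CU and KM alike, and for 66 risers and 88 fallers no diet differed from SBM by this test. The differences of single members from SBM given below come from the fish that chose them, and the rule picks probes shifted in SBM. Their p-values are therefore a description and not a test. MAF was higher than in SBM by 1.38 on CV, by 1.31 on CU and by 1.41 on KM (limma, adjusted p = 1.45e-06, 8.85e-06 and 7.46e-06). MEP1B was higher by 1.45, 1.32 and 1.38 on CV, CU and KM (limma, adjusted p = 1.51e-05, 0.000144 and 0.000196). FCGBP was higher by 2.49, 2.27 and 2.38 (limma, adjusted p = 0.000382, 0.00195 and 0.0015). All 3 lay below FM in these diets, with differences of −0.47 to −0.77, which the rule fixes. Against FM, MAF was called below in CV, CU and KM, and MEP1B and FCGBP were called in none of these.

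Among risers, CCL20 was lower than in SBM, with a difference of −1.53 on CV, −1.32 on CU and −1.28 on KM (limma, adjusted p = 1.57e-05, 0.000297 and 0.000621). ENTK was lower too, with −2.14 on CV and −1.88 on CU (limma, adjusted p = 5.41e-05 and 0.000549). In KM its difference from SBM was −0.45, with a 95% interval of −1.19 to 0.29. ANXA2 (Ssa_CL476Contig1) was lower as well, with −0.63 on CV, −0.55 on CU and −0.66 on KM (limma, adjusted p = 0.00401, 0.0172 and 0.00447). In SC its difference was −0.21, with an interval of −0.53 to 0.10.

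Lysosome probes were higher than in SBM in CV, CU and KM for MA2B1, both BGAL probes, PPGB and CPVL. For MA2B1 the differences were 1.63, 1.29 and 1.41 (limma, adjusted p = 0.000353, 0.00676 and 0.00327). GPNMB passed in CV only, with 1.14, and S17A5 in no diet, with intervals that reached 1.1 on CU.

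For some members the difference from SBM did not pass in any diet. OLFM4 differed from SBM by 0.38 on CV, with a 95% interval of −0.45 to 1.21, and by 0.29 on KM, with −0.54 to 1.13. NST1 differed by 1.11 on CV (0.17 to 2.05) and by 0.92 on CU (−0.03 to 1.86). ACOD differed by 0.48 on KM, with −0.60 to 1.56, and FICD by −0.19 on CV, with −0.43 to 0.05. GBF1 differed by 0.16 on CV, with −0.28 to 0.59. Apart from FICD and GBF1, these intervals leave room for differences near 1 in size or above.

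By limma's test and the limit of 0.4 against FM, 114 risers were called on CV, 116 on CU, 121 on KM, 144 on SC and 146 on SBM, and 91 in all 5. Of all probes, 3.82%, 2.59%, 4.97%, 12.6% and 12.8% were called above FM in these diets and 0.953% in all 5. Of the fallers, 57 were called on CV, 72 on CU, 77 on KM and 110 on SC, and 43 in all 5, while on SBM 64.5% of the 166 fallers were. Of all probes, 1.43%, 2.75%, 3.06%, 9.56% and 9.34% were called below FM in these diets and 0.431% in all 5. Since the rule chose the members on these differences, nothing is read from these counts.

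Every fish of a diet was above every FM fish for 8 risers on CV, 13 on CU, 25 on KM, 62 on SC and 106 on SBM, beside 0.232%, 0.133%, 0.381%, 2.74% and 6.43% of all probes. SBM, with 7 fish, separates more easily than the groups of 10. In all 5 diets at once this held for 5 risers (0.0414% of all probes), which were ANXA2 (Ssa_CL476Contig1), ANX2A (Ssa_EG783484), T4S1 and the unannotated Ssa_S35685588 and Ssa_S35557680. Every fish of a diet was below every FM fish for 1 faller in CV, 3 on CU, 8 on KM, 59 on SC and 71 on SBM, beside 0.0166%, 0.0497%, 0.149%, 3.13% and 3.48% of all probes, and 0 in all 5 diets (0% of all probes). For 55 risers and 87 fallers no diet was separate from FM.

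All 5 differences share the FM fish, so the FM fish were split by their number into 5 odd and 5 even. With the odd FM fish 146 risers and 116 fallers kept the limit, and with the even FM fish 128 and 124. With both sets of FM fish 108 risers and 74 fallers kept it. The sign in all 5 diets was kept by all 166 risers with either set, and by 162 and 161 fallers. The odd and the even FM means differed by 0.18 in size for the median member and by 0.12 for the median probe. Within each of the 2 scan days, the sign was kept by 162 and 163 risers and by 150 and 158 fallers, and the limit by 115 and 120 risers and by 106 and 97 fallers. The fish in these splits also chose the members, so the kept signs follow largely from the rule. These counts are a description and not a test.

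Probes that the rule chose in one set of fish were also tested in the other set. The rule applied to odd-numbered fish of all groups (4 on SBM, 5 in the others) chose 240 risers and 218 fallers. Of these, 131 risers and 101 fallers are members, so the counts below are not those of the members. In the even-numbered fish, 14 of these risers were called above FM on CV, 22 on CU, 38 on KM, 101 on SC and 104 on SBM, against 0.381%, 0.547%, 0.647%, 3.47% and 3.47% of all probes. Of these fallers, 3 were called below FM on CV, 33 on CU, 34 on KM, 92 on SC and 88 on SBM, against 0.108%, 0.912%, 0.796%, 4.66% and 3.54%. The limit in all 5 diets was met again by 68 of the 240 risers (28.3%, where 1.77% of all probes met it) and by 36 of the 218 fallers (16.5%, where 1.57% met it).

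Calls in all 5 diets in the even-numbered fish were made for 7 of the chosen risers (0.058% of all probes) and 2 of the chosen fallers (0.0166%). The risers were both ANXA2 probes, ANX2A (Ssa_EG783484), T4S1, Ssa_S35544475, Ssa_S35685588 and Ssa_S35557680, and the fallers were OLFM4 and Ssa_CK884804. With the roles of the fish exchanged, 21 of 175 risers (0.589% of all probes) and 10 of 179 fallers (0.29%) were called in all 5 diets. These included the 7 risers and Ssa_CK884804, but not OLFM4. The contrasts within one set of fish still share their FM fish.

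The members also differed from other probes in level and spread. The rule sets a limit on means with no term for the spread, so it favours probes that vary between fish. The FM mean enters every difference that the rule used. A low FM level in risers and a high one in fallers therefore follow in part from the rule, and nothing is read from them. The median FM level was 7.67 for risers and 9.05 for fallers, against 8.26 for all probes, and the median SD among FM fish was 0.38 and 0.56, against 0.30. Flags well above background on every array were given to 146 risers (88.0%) and 140 fallers (84.3%), against 90.7% of all probes. Within groups, the deviations of the fish from their group mean had a mean correlation between pairs of risers of 0.21 over the 57 fish, of 0.13 between pairs of fallers, of −0.13 between a riser and a faller and of 0.02 between all probes. For pairs of risers it was 0.22 on CV, 0.28 on CU, 0.16 on KM, 0.30 on SC, 0.08 on SBM and 0.09 on FM. Pairs of probes share their arrays, so these are descriptions. Risers and fallers are each sorted by direction, and some pairs are probes of one gene. The value for all probes is a signed mean over probes of every direction, so its pairs can cancel. It is not that of a like set, and nothing is read from the gap.

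The limit cuts a continuous range. The risers just inside it were HOMEZ, with a smallest difference of 0.401, and Ssa_S18881002, with 0.402, and the probes just outside were LMNA and PLP2, both with 0.399. The fallers just inside were Omy_S15242141 and Ssa_GRASP221220429, both with −0.400, and the probes just outside were Omy_CA381387, with −0.398, and PSMD4, with −0.397. Within 0.05 of the limit lay 43 risers and 53 fallers on the inside and 85 and 69 probes on the outside.

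Markers of the cell types in the gut wall were annotated for 18 probes, and those of neutrophils, red blood cells and pancreas for none. Members among them were FCGBP and TVA1 (Ssa_S37959499) as fallers and CDKN3 and KIF2C, genes of dividing cells, as risers. The other TVA1 probe, Ssa_S35603081, is no member and differed from FM by −0.66 to 0.05. The mean level over the 18 probes ranged between 9.76 and 10.4 in CV fish, 9.57 and 10.2 on CU, 9.79 and 10.5 on KM, 9.27 and 9.91 on SC and 9.37 and 9.91 on SBM, against 9.79 to 10.2 on FM. The smooth muscle gene desmin (DESM, Ssa_S30277916) lay 0.44 above FM on CV, 0.61 on KM and 0.73 on SC, and 0.04 on CU and 0.04 on SBM. The 3 other probes of dividing cells, of CDKN3 and CCNB1, lay 0.21 to 0.81 above FM in all 5 diets. Of the macrophage markers, MPEG1 differed from FM by −0.70 on SC and −0.53 on SBM, and CD68 by −0.28 and −0.44. On CV, CU and KM both differed by −0.03 to −0.19. The B cell marker IGHM differed by −0.33 on SC and −0.51 on SBM, and by 0.08 to 0.27 on the other diets. The part of these cell types in the shifts of the members was not tested.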

How the data were processed

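RNA from the distal intestine of 57 salmon was hybridised to one-colour Agilent arrays, 1 per fish. The authors deposited scanner intensity values after background subtraction and a table of log2 values. Per the study's methods, the authors removed control spots and those not well above background or not uniform, quantile normalised the arrays, took log2 and imputed missing values. The deposited log2 table was used as the main source, and intensity values were processed anew after these methods, with arrays scaled to their 75th percentile, or with normexp correction. The values processed after the methods differed from the deposited ones by 0.067 in the median and lay within 0.01 of them in 8.44% of cases, so they are an alternative and not a copy. The number of arrays limits the precision.

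Models were fitted over all 12064 probes and 57 arrays with limma 3.58.1 in R 4.3.3, with diets against FM by the nested F-test and against SBM by Benjamini-Hochberg adjustment per contrast, both at 0.05. The scripts were tested on simulated data. Fish of one number lay on one slide within SBM, CU and FM for all 7 numbers they share, and within CV, KM and SC for 9 of 10, but over all diets for 0 numbers, so the number stands in part for the slide. The labels give it no meaning. The deviations of same-numbered fish had a mean correlation over 0.1 for 3 of 10 numbers, and the number and the slide were each tried as a block. Members, gene lists and tests were chosen with earlier results of these data known. Named genes are, in each direction, the 12 annotated members with the largest smallest difference, those with several probes or in a gene list, 2 unannotated members and the members and probes nearest the limit. Gene names come from the study's probe tables, held in part, and no other table matched the probes. No sequence of a probe or promoter was used here.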

Additional observations from a re-analysis of the deposited data

Results flagged for a closer look

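Over the 28 lead members and the fish means of risers and fallers, 180 groups were searched for a fish far from the rest of its diet by Dixon's 95% limit, which chance passes in about 1 in 20 groups, and 9 passed. Among risers these were PRS27 in SBM fish 5 at 7.0, with the next fish at 8.13, SPG20 in CU fish 1 at 11.05, with the next at 9.91, ANXA2 (Ssa_S35493532) in SBM fish 7 at 16.66, with the next at 16.42, and ANX2A (Ssa_GRASP209732331) in SC fish 6 at 14.82, with the next at 14.18. Among fallers, OLFM4 in CV fish 3 was at 7.11, with the next fish at 9.78, and SHRM3 in CV fish 4 at 9.09, with the next at 7.67. CU fish 3 stood apart for both PROC, at 11.40 with the next at 10.12, and GPNMB, at 9.93 with the next at 8.28. The unannotated Ssa_TC89077 was at 12.28 in FM fish 9, with the next FM fish at 10.76.

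Against SBM, limma's test passed for members on CV, CU and KM, in the fish that chose them. On CV it passed for 84 risers lower (8.49% of all probes) and 68 fallers higher (8.42%). On CU these were 72 (6.6%) and 58 (4.28%), and on KM 74 (7.62%) and 59 (7.24%). The rule picks probes shifted in SBM, so nothing is read from the gap.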

How the results depend on the processing

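The number of risers was 387, 94 and 17 and that of fallers 346, 74 and 9 at limits of 0.3, 0.5 and 1, in place of 166 each at 0.4. With normexp correction the rule chose 68 risers and 81 fallers. The scanner signals processed after the methods gave 89 fallers, of which 88 were members, and 236 risers, of which 160 were members, and shifted the median of all probes from FM to 0.16 in CV. The 75th percentile scaling gave 275 fallers, the even-numbered FM fish alone 324, and fish of the second scan day alone 323 risers and 251 fallers. Leaving out CV replicate 7 or FM replicate 3, chosen after seeing the data, gave 156 to 168 risers and 136 to 199 fallers.

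Against SBM, the fish of the first scan day alone gave 9 risers lower and 19 fallers higher in CV, 17 and 22 in CU and 0 and 2 in KM. Those of the second gave 21 and 26 in CV, 0 and 0 in CU and 4 and 1 in KM, with fewer fish in each. The scanner signals gave 49 risers lower in KM. In SC, normexp correction gave 3 risers lower, and SC and SBM compared alone gave 9 risers lower and 1 faller higher. With the fish number as a replicate block, 83, 77, 70 and 0 risers were lower and 62, 57, 51 and 0 fallers higher in CV, CU, KM and SC (18 of 57 fish correlated best with a fish of their own number). With the slide as a block, these counts were 83, 71, 68 and 0 risers and 64, 56, 53 and 0 fallers. Chosen in even-numbered fish and tested in odd ones, 21 risers and 10 fallers were called in all 5 diets, and 1 faller was with the 75th percentile scaling or the scanner signals, in place of 2. The other 103 counts stayed within 1.5 times the reported one. The smallest difference of the named members moved by more than the spread between fish in 5 cases and stayed within it in 481. No direction was reversed in these cases. They keep all fish of the 5 soybean diets and vary only the scaling, the block or the FM fish. With normexp correction the smallest difference was 0.44 for EPD1, 0.56 for PRS27, 0.19 for MPP2 and 0.16 for IKBE (Omy_TC146689), and with the 75th percentile scaling 2.74 for PRS27. In even-numbered fish alone it was −0.15 for ENTK and −0.004 for HPSE (Omy_S15260542), against 1.22 and 1.64 in odd-numbered fish. The direction of ENTK and HPSE was thus not kept in all 5 diets there, nor was that of TVA1 (Ssa_S37959499), with 0.05. Other members fell under the limit there, among them ACOD with 0.15, CCL20 (Omy_S15341085) with 0.21, C1QL2 with 0.36 and B3GN7 with 0.33. So did CO6 with 0.33, CCL4 with 0.36, ANXA3 with 0.34, FOXA1 with 0.31 and ETV4 with 0.23. The risers of protein folding and turnover were under it too. Among fallers the smallest difference was −0.07 for MA2B1, −0.09 for GPNMB, −0.15 for BHE41 and −0.16 for CPVL. These are examples and not all such members. The limit was met in both sets of fish by 68 risers and 36 fallers. Causes of these changes were not tested.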
